A study of Homo sapiens with 6 samples.

Results

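The 10 genes described are members of the ETS family of transcription factors, ETS1, ETS2, ERG, FLI1, ELK3, ETV1, ETV4, ETV5, ELF1 and EHF, followed in MSTO-211H cells. They are 10 of the 17687 genes with a row on the array. They were taken by gene symbol, 1 row each, and the group of 10 was chosen from results of these same arrays, so that their differences between the groups are given as a description, with no test. MSTO-211H (MSTO) is a human malignant mesothelioma line, a tumour of the lining of the chest. The study asked what inhibition of the microRNA miR-503 does to these cells. RNA was taken after 48 h from 3 cultures labelled as given the miR-503 inhibitor (anti-miR-503) and from 3 control cultures, all grown in RPMI medium and labelled as biological replicates. Each culture had 1 Clariom S array, made from 100 ng of RNA. The sources differ on the controls, which the labels call untreated while also naming a DMSO vehicle, and for which the methods name a negative control oligonucleotide and also untreated cells. All 6 arrays come from the 1 cell line, and the level of miR-503 itself was not measured on them.

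ETS factors share a DNA-binding domain, the ETS domain, which recognizes a GGAA core, so that many members can bind the same sites. They differ in the parts outside that domain and in the cells that express them. Many are end points of the Ras and ERK kinase pathway: ERK phosphorylates ETS1, ETS2, the PEA3 group (ETV1, ETV4, ETV5) and the ternary complex factors (ELK1, ELK3, ELK4), and these bind beside AP-1 or with serum response factor at growth factor-responsive genes. Several are activated in tumours by gene fusion, such as ERG in prostate cancer and FLI1 in Ewing sarcoma. The arrays measure RNA, so neither the phosphorylation nor the amount of these proteins is seen.

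The inhibitor is directed against miR-503, whose mature RNA is shown with related miRNAs because a shared seed is the part by which they recognize targets. The capitals mark bases 2 to 8, the sequences are those of RefSeq (GRCh38.p14), and miR-503-5p lies at chrX:134546371-134546393 on the minus strand.
hsa-miR-503-5p: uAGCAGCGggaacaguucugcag
hsa-miR-424-5p: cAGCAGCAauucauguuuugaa
hsa-miR-16-5p: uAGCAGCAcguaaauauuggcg
hsa-miR-15a-5p: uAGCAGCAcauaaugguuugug
Bases 2 to 7 are the same in 9 mature miRNA names of the table, and of these miR-503-5p alone has its base 8. No match of these seeds to the ETS transcripts was looked for.

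The signals below are log2 values after RMA, on which 1 unit is a 2-fold difference. A signal was taken as above background where it exceeded 95 of every 100 negative control rows on its own array, a limit that lay between 7.44 and 8.09. Of the 10 genes, 6 (ETS1, ETS2, FLI1, ELK3, ETV1 and ELF1) were above background on all 6 arrays, ETV4 on 2, ETV5 on 4, and ERG and EHF on none. The arrays labelled anti-miR-503 did not behave alike. Over all rows, anti-miR-503 replicate 1 correlated best with control replicate 3 (r = 0.991), against 0.980 and 0.977 with anti-miR-503 replicates 2 and 3, which correlated at 0.989 with each other. In 7 of the 10 ETS genes the highest arrays were anti-miR-503 replicates 2 and 3, an order found in 13.3% of all rows. Since the 10 were chosen from results of these same arrays, nothing about the arrays is read from this count.

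ETS1 and ETS2, the founding pair of the family and both direct substrates of ERK, were the genes of the 10 that passed the 2-fold threshold upwards. ETS1 had log2 signals of 10.17, 11.82 and 12.46 in anti-miR-503 replicates 1, 2 and 3, against 9.48, 10.34 and 10.02 in control replicates 1, 2 and 3. Replicates 2 and 3 of anti-miR-503 lay above every control, while replicate 1 lay below control replicate 2, so the groups overlapped. The means were 11.48 ± 1.18 in anti-miR-503 and 9.95 ± 0.43 in control arrays (SD, n = 3 each), a log2 difference of 1.53 (anti-miR-503 minus control, standard error 0.54). By array label ETS1, ETS2, ERG and ELF1 all have the opposite sign here to the fold changes listed in the study's own gene sheet. All directions given here are those of the array labels. In RNA from a whole culture, more cells expressing a gene and more RNA per cell cannot be told apart.

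ETS2 had 12.38, 13.75 and 13.82 in anti-miR-503 arrays, against 12.25, 12.57 and 12.08 in control arrays. Again replicates 2 and 3 were above all controls and replicate 1 lay among them. The means were 13.32 ± 0.81 in anti-miR-503 and 12.30 ± 0.25 in control arrays (SD, n = 3 each), and the log2 difference was 1.01 (standard error 0.39). Without anti-miR-503 replicate 1 the log2 difference was 2.19 for ETS1 and 1.48 for ETS2, and without anti-miR-503 replicate 3 it was 1.04 and 0.76. Neither gene passed the threshold when anti-miR-503 replicate 2, anti-miR-503 replicate 3 or control replicate 1 was left out, and ETS2 (0.91) did not without control replicate 3 either.

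The 2-fold threshold is at least a 2-fold change at an unadjusted p of 0.05 or less by limma. Of the 10 genes, 2 passed it upwards, where 0.872% of all rows did, and 0 downwards, where 0.914% of all rows did. No row of the whole table passed an adjusted p under 0.05 from limma (0% of 21448, smallest adjusted p = 0.756), and 1377 rows had an unadjusted p of 0.05 or less. The median log2 difference of the 10 genes was 0.78, beside 0.0098 over all rows. Because the genes were selected on this contrast, nothing is read from these counts.

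**Figure D1:**
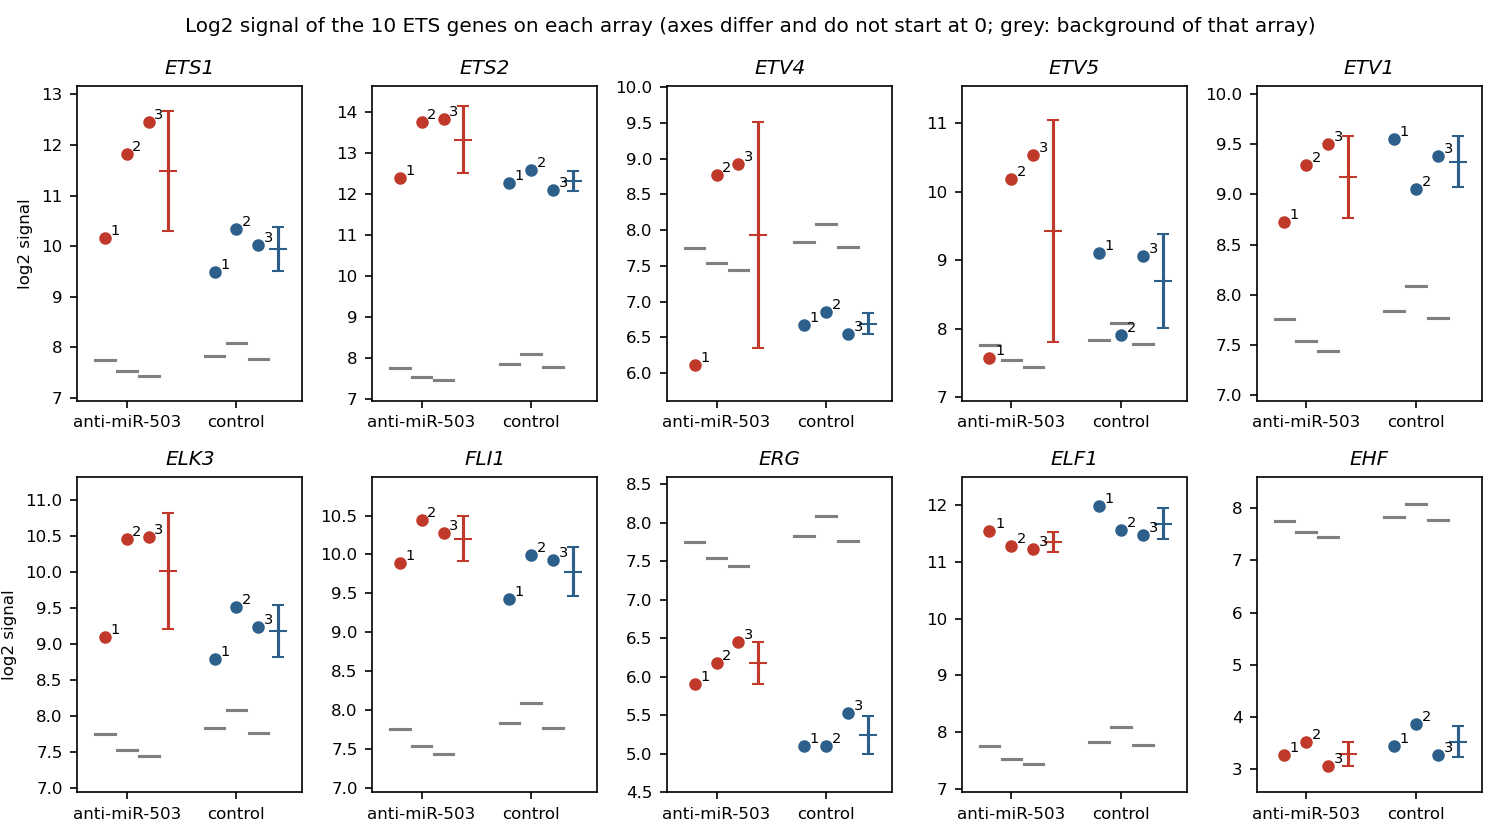
Log2 signal (vertical axes, which differ and do not start at 0) of the 10 ETS genes in anti-miR-503 (red, left) and control (blue, right) arrays. Each point is 1 array with its replicate number, the bars are mean ± SD of 3 arrays and the grey dashes are each array's background. In ETS1, ETS2, ETV4, ETV5, ELK3, FLI1 and ERG the highest points are anti-miR-503 replicates 2 and 3, and ERG and EHF lie below background throughout.

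The PEA3 group, which is induced by FGF and ERK signalling in many tissues, was uneven among its 3 genes. ETV4 had 6.11, 8.77 and 8.92 in anti-miR-503 arrays, against 6.68, 6.85 and 6.55 in control arrays. It exceeded background only in anti-miR-503 replicates 2 and 3, by more than 1 log2 unit, whereas replicate 1 was the lowest of the 6 arrays. Since no control array was above background, only a bound can be given, and over all 3 arrays of each group ETV4 was at least 1.03-fold higher in anti-miR-503.

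ETV5 had 7.57, 10.18 and 10.53 in anti-miR-503 arrays, against 9.11, 7.91 and 9.07 in control arrays. Its anti-miR-503 arrays therefore held both the lowest and the highest values, and replicate 1 of anti-miR-503 and replicate 2 of the controls were below background. The log2 difference of 0.73 had a standard error of the same size (0.72) and was 1.66 without anti-miR-503 replicate 1 but 0.18 without anti-miR-503 replicate 3. ETV1, which is rearranged in some prostate cancers, had 8.72, 9.30 and 9.50 in anti-miR-503 arrays, against 9.55, 9.05 and 9.38 in control arrays. The values of ETV1 were interleaved, with a log2 difference of -0.15 (standard error 0.27), which was 0.07 without anti-miR-503 replicate 1.

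ELK3, a ternary complex factor that works with serum response factor and represses transcription until ERK phosphorylates it, had 9.10, 10.47 and 10.49 in anti-miR-503 arrays, against 8.79, 9.51 and 9.24 in control arrays. As in ETS1 and ETS2, replicates 2 and 3 of anti-miR-503 were the highest arrays, control replicate 2 came next and anti-miR-503 replicate 1 lay among the controls. The log2 difference was 0.84 (standard error 0.40), and 1.30 without anti-miR-503 replicate 1. The other ternary complex factors did not follow: ELK1 had a log2 difference of -0.15 (standard error 0.32) and ELK4 of -0.21 (standard error 0.21), and for neither were replicates 2 and 3 the highest arrays. These differences between paralogs were not tested.

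FLI1 and ERG, close relatives known for their roles in endothelial and blood cells, are the neighbours of ETS1 on chromosome 11 and of ETS2 on chromosome 21 in the RefSeq annotation. FLI1 had 9.89, 10.44 and 10.28 in anti-miR-503 arrays, against 9.42, 9.99 and 9.93 in control arrays. Its replicate 1 of anti-miR-503 lay below control replicates 2 and 3, and the log2 difference of 0.42 (standard error 0.26) was 0.25 without control replicate 1. ERG had 5.90, 6.18 and 6.45 in anti-miR-503 arrays, against 5.10, 5.10 and 5.53 in control arrays. It was the 1 gene of the 10 whose groups did not overlap, which 5.92% of all rows showed upwards and 4.6% downwards, but every value was below background, so no fold is given.

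Markers of endothelial and blood cells were read in the same arrays. Of 12 endothelial markers, 10 were above background on no array, among them the defining genes PECAM1, CDH5, VWF and TEK, and ENG and EGFL7 were above it on all 6. The median level over the endothelial list was 5.05, 4.87 and 5.02 in anti-miR-503 arrays, against 4.91, 4.99 and 5.02 in control arrays. Of 11 leukocyte markers, 0 were above background on any array.

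ELF1, a broadly expressed activator first studied in lymphocytes, went the other way in its mean. It had 11.54, 11.28 and 11.22 in anti-miR-503 arrays, against 11.98, 11.57 and 11.47 in control arrays. Replicates 2 and 3 of anti-miR-503 were here the lowest arrays, and replicate 1 lay between the controls. The log2 difference was -0.33 (standard error 0.23), and -0.17 without control replicate 1. EHF, an epithelial ETS factor, had 3.27, 3.52 and 3.07 in anti-miR-503 arrays, against 3.45, 3.87 and 3.28 in control arrays, all far below background. ELF3, its relative and itself on the list of epithelial markers, exceeded background on 3 of 6 arrays, and so did KRT8, KRT18 and CLDN7 on all 6, which makes 4 of the 10 epithelial markers. The other 6 markers, EPCAM and CDH1 among them, were above background on no array. Of these KRT19 had groups that did not overlap, higher in anti-miR-503, which 5.92% of all rows showed.

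Of the mesothelial markers 5 of 9 exceeded background on at least 1 array. MSLN, CALB2 and KRT7, which mark mesothelial cells, did so on all 6, and WT1, PDPN and KRT5 on none. Between 40.3% and 43.6% of all rows were above background on an array. The name of the line as mesothelioma comes from its source and was not tested by these markers.

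Of the other 18 ETS genes with a row, none passed the 2-fold threshold by limma, where 0.872% of all rows did upwards and 0.914% downwards. An unadjusted limma p of 0.05 or less was found for 0 of the 18 and for 1377 of all 21448 rows. Of these 18, 8 were above background on all arrays and 9 on none. Their log2 differences ran from -0.41 for ELF3 to 0.39 for ETV2, a vascular and blood progenitor factor that was above background on no array, with a median of 0.04. Anti-miR-503 replicates 2 and 3 were the highest arrays for 4 of the 18 (ETV2, ETV3, ETV6 and ELF5), where 13.3% of all rows had this order. The groups did not overlap for 3, ELF5 and SPI1 upwards below background and ELK4 downwards. Over all rows, 5.92% did not overlap upwards and 4.6% downwards.

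Among those above background on all arrays, the repressors ETV6, ETV3 and ERF had log2 differences of 0.30, 0.16 and -0.20, ELF4 and ELF2 had 0.35 and -0.12, and GABPA, which drives mitochondrial and housekeeping genes, had -0.06. Below background throughout were also FEV, ETV7, ETV3L, SPDEF, SPIB and SPIC. The 10 genes described and the other 18 differ by construction, since the 10 were chosen on these values.

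**Figure D2:**
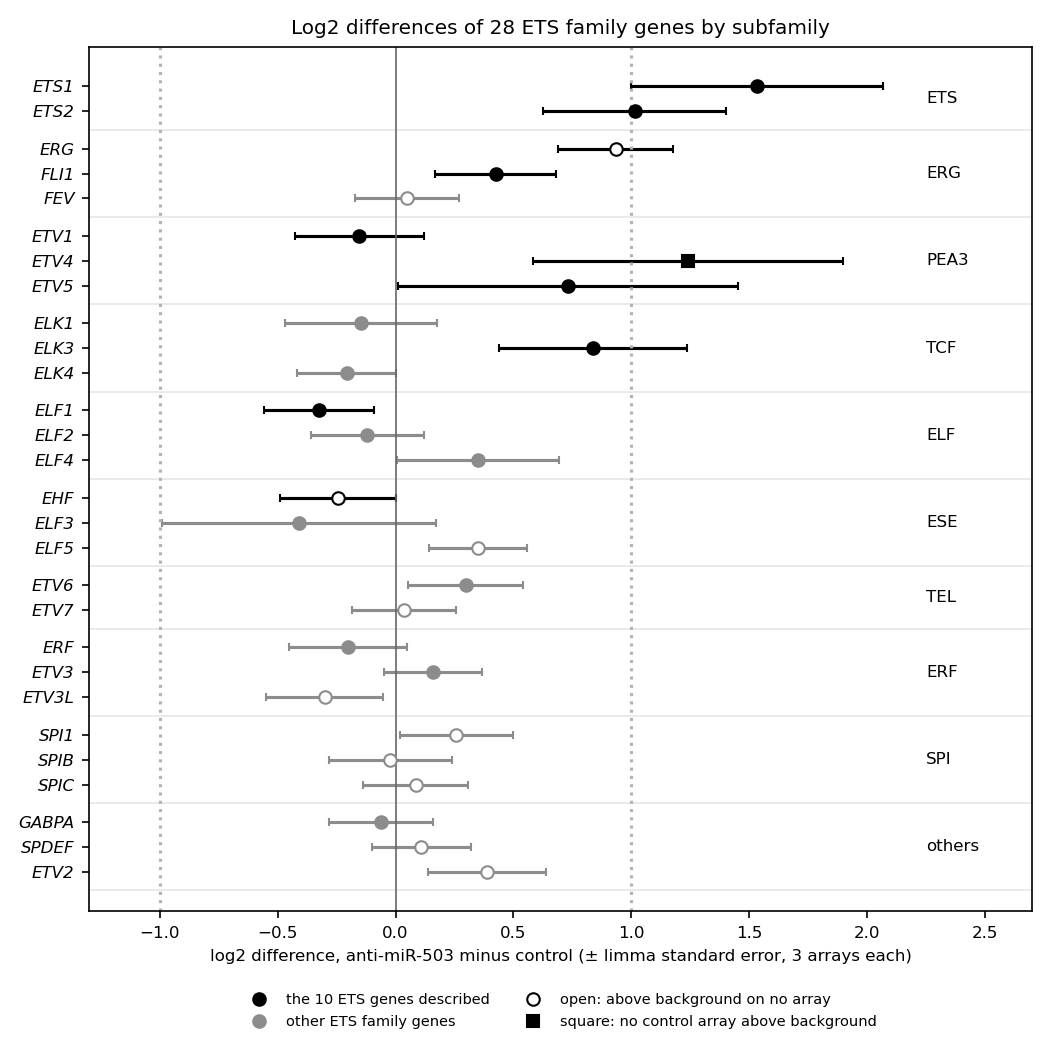
Log2 difference (horizontal axis, anti-miR-503 minus control, bars are the limma standard error, 3 arrays each) of the ETS genes with a row, grouped by subfamily. Black points are the 10 genes described, grey the other 18, open points were above background on no array, so that no fold is read from them, and the square (ETV4) had no control array above background, so that only its bound of 1.03-fold is read. Dotted lines mark a 2-fold difference, past which lie the circles of ETS1 and ETS2.

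The 10 genes did not vary as 1 block. Over the 6 arrays, which fall into 2 groups, Pearson's r was 0.964 for ETS1 with ETS2 and 0.976 for ETS1 with ELK3. For ETS2 with ETV4 it was 0.967. In each of these genes anti-miR-503 replicates 2 and 3 were the highest arrays. FLI1 ran opposite to ELF1 (r = -0.952). Within the PEA3 group ETV4 and ETV5 had r = 0.878 and ETV1 and ETV5 0.787, but ETV1 and ETS1 only 0.218. These are descriptions over 6 arrays of 2 groups, and no p is attached to them.

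The RefSeq table holds promoter windows for 6 of the 10 genes (ETS2, ERG, ELK3, ETV1, ELF1 and EHF), and the entries for ETS1, FLI1, ETV4 and ETV5 are missing. ETS2 and ELK3, whose values ran alike over the arrays (r = 0.959), are shown by their first window, which spans 250 bases before to 50 after an annotated start, with every GGAA on either strand (GGAA or TTCC) in capitals. The window of ETS2 is chr21:38804933-38805232 and that of ELK3 is chr12:96194125-96194424, both on the plus strand of GRCh38.p14.
ETS2: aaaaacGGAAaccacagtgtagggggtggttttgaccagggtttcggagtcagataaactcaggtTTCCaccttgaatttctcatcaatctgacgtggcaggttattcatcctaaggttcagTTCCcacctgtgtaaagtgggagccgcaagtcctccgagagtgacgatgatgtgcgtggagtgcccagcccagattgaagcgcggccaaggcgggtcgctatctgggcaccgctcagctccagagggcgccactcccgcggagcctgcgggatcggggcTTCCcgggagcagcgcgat
ELK3: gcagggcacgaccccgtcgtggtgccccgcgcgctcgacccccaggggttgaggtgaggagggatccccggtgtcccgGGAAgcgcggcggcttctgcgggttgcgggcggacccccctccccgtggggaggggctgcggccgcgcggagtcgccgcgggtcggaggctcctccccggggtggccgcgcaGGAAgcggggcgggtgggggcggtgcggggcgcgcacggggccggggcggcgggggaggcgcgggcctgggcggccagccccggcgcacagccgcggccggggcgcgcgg
The core occurs 4 times in the window of ETS2 and 2 times in that of ELK3, and in their second annotated windows 7 and 8 times. Such matches are common: GGAA on either strand is in 95.4% of the 34943 promoter windows of this length, with a median of 3 copies. The longer motif CCGGAA (17.2% of all windows) and the AP-1 motif TGANTCA (7.72%), both also searched on either strand and the first of them overlapping GGAA, were found in neither printed window. A match is a run of letters and not a measured binding site.

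The partners with which ETS factors bind DNA were followed for 14 genes. None of the 14 passed the 2-fold threshold by limma, where 0.872% of all rows did upwards and 0.914% downwards. An unadjusted limma p of 0.05 or less was found for 2 of the 14 and for 1377 of all 21448 rows. FOSL2, an AP-1 subunit, had 9.77, 10.70 and 10.71 in anti-miR-503 arrays, against 9.28, 9.58 and 9.33 in control arrays. Its groups did not overlap, which 5.92% of all rows showed upwards, and the log2 difference of 1.00 (standard error 0.30) was just under 2-fold. RUNX2, a runt factor that cooperates with ETS1, had a log2 difference of -0.70 (standard error 0.26). Its groups did not overlap either, which 4.6% of all rows showed downwards.

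FOSL1, another AP-1 subunit and a target of ERK, is named after its values were seen: it had 12.61, 15.20 and 15.73 in anti-miR-503 arrays, against 13.05, 12.73 and 13.48 in control arrays. As in ETV4, replicate 1 of anti-miR-503 was the lowest array and the other two the highest. Without anti-miR-503 replicate 1, 4 of the 14 partners passed the threshold upwards, where 2.42% of all rows did, and 1 downwards, where 3.81% of all rows did.

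Genes whose products control the amount or activity of ETS proteins were followed for 14 genes. None passed the 2-fold threshold by limma, where 0.872% of all rows did upwards and 0.914% downwards. An unadjusted limma p of 0.05 or less was found for 2 of them and for 1377 of all 21448 rows. ATXN1, which with Capicua (CIC) represses the PEA3 genes, had 8.62, 7.35 and 7.43 in anti-miR-503 arrays, against 8.46, 8.80 and 8.88 in control arrays, a log2 difference of -0.92 (standard error 0.35). It was below background in anti-miR-503 replicates 2 and 3, and above it in anti-miR-503 replicate 1, which lay among the controls, and in all 3 controls. CIC itself was above background on no array. Without anti-miR-503 replicate 1, 2 of the 14 regulators passed downwards, where 3.81% of all rows did. CAMK2G, a subunit of the calcium-dependent kinase that phosphorylates ETS1, had a log2 difference of 0.59 (standard error 0.25). COP1, the ubiquitin ligase that degrades PEA3 proteins and ETS1, is named after its values were seen, with -0.39 (standard error 0.20). The groups did not overlap for CAMK2G upwards, as in 5.92% of all rows, and for COP1 downwards, as in 4.6%.

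Feedback genes that ERK induces were read here beside the ETS genes because both lie on the same pathway. At the 2-fold threshold 2 of the 13 were higher, where 0.872% of all rows were, and 0 lower, where 0.914% of all rows were. DUSP5, a nuclear phosphatase of ERK, had 11.90, 13.95 and 13.87 in anti-miR-503 arrays, against 11.04, 11.52 and 11.23 in control arrays. Its groups did not overlap, which 5.92% of all rows showed upwards, and the log2 difference was 1.98 (standard error 0.51). SPRY1, a Sprouty inhibitor of receptor signalling, had 7.66, 8.60 and 8.78 in anti-miR-503 arrays, against 7.63, 6.53 and 7.37 in control arrays. None of the controls was above background, which gives at least 1.36-fold higher in anti-miR-503. Replicate 1 of anti-miR-503 was below background too, and its value entered this bound as it stands.

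The median log2 difference of the 13 feedback genes was 0.30. Of the 13, 7 had anti-miR-503 replicates 2 and 3 as their highest arrays, an order found in 13.3% of all rows. Without anti-miR-503 replicate 1, 5 of the 13 passed upwards, where 2.42% of all rows did, and DUSP5 had a log2 difference of 2.65. DUSP5 passed whichever array was left out, whereas SPRY1 did not pass without anti-miR-503 replicate 2, anti-miR-503 replicate 3 or control replicate 2. The list was written with earlier results of these arrays known. DUSP6, the cytoplasmic phosphatase of ERK, had 7.64, 9.41 and 9.18 in anti-miR-503 arrays, against 8.75, 7.88 and 8.71 in control arrays, the same order of low arrays as ETV5 (anti-miR-503 replicate 1, then control replicate 2). EGR1, an immediate early target of the ternary complex factors, is named after its values were seen and stood apart in 1 array, with 8.29, 7.96 and 6.56 in anti-miR-503 arrays, against 13.82, 6.89 and 8.53 in control arrays.

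**Figure D3:**
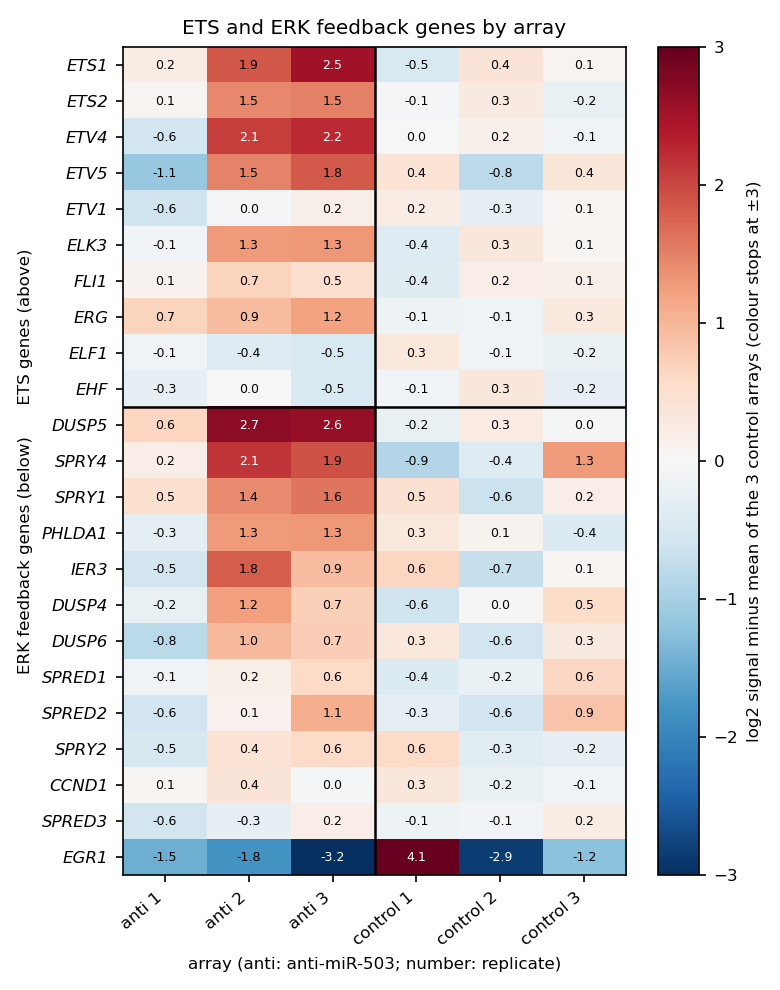
Log2 signal of each array minus the mean of the 3 control arrays (colour, red higher and blue lower, stopping at ±3, with the number in each cell) for the 10 ETS genes and, below the line, 13 ERK feedback genes ordered by mean difference. Columns are anti-miR-503 replicates 1 to 3 and then control replicates 1 to 3. In 7 ETS genes and 7 feedback genes anti-miR-503 replicates 2 and 3 are highest, an order found in 13.3% of all rows.

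Genes known as ETS targets, such as matrix proteases and their receptors, were also followed. Of 20 with a row, 13 were above background on no array, among them MMP3, MMP9, MMP13 and TERT, and 4 were above it on all. Of all 21448 rows, 8035 were above background on all arrays, and between 40.3% and 43.6% on any given array. Nothing about the targets is read from their count. SPP1, which encodes osteopontin, was the 1 that passed the 2-fold threshold upwards, where 0.872% of all rows did. Downwards 0 passed, where 0.914% of all rows did. SPP1 had 11.03, 15.65 and 15.30 in anti-miR-503 arrays, against 5.94, 12.02 and 9.40 in control arrays. Control replicate 1 was below background, so that the log2 difference of 4.88 (standard error 1.59) and those with other arrays left out rest in part on a value not above background. For SPP1 too the sign by array label is opposite to the direction given in the study. The study also reported lower SPP1 after miR-503 inhibition by q-PCR in mesothelioma cell lines and by antibody staining of treated mouse tumours. Whether the array labels or the direction of the study's comparison are exchanged was not tested. The call on SPP1 was lost without anti-miR-503 replicate 2 or replicate 3 (4.05 and 4.22). Leaving out anti-miR-503 replicate 1 gave it a log2 difference of 6.36, and leaving out control replicate 1 or 2 gave 3.29 or 6.33. PLAUR, the urokinase receptor, is named after its values were seen, with 6.34, 9.59 and 9.25 in anti-miR-503 arrays, against 7.55, 7.46 and 6.08 in control arrays. It was above background in anti-miR-503 replicates 2 and 3 only, as ETV4 was. The median log2 difference of the 20 was 0.17, and the count with anti-miR-503 replicates 2 and 3 highest was 8, where 13.3% of all rows had this order. Among the 8 are MMP1, MMP13, TNC and ANPEP, which were above background on no array. This list too was written with earlier results of these arrays known, so nothing is read from the count.

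Of 3936 named genes above background on at least 3 arrays and with a range of at least 1 log2 unit, those whose 6 values ran most like ETS1 were FGD6 (r = 0.997), TSPAN9 (0.995), DIPK2A (0.992), TNFAIP2 (0.992) and BCAR3 (0.987). FGD6, an exchange factor for small GTPases, had 8.54, 9.88 and 10.34 in anti-miR-503 arrays, against 8.08, 8.68 and 8.30 in control arrays. Like ETS1 it was lowest in control replicate 1 and highest in anti-miR-503 replicate 3. For ETV5, the gene of the 10 with the next largest range, the 5 were ASNS (0.995), STEAP1 (0.978), PDCD2L (0.974), DUSP6 (0.972) and TRERF1 (0.963). ASNS, asparagine synthetase, had 13.32, 14.45 and 14.66 in anti-miR-503 arrays, against 13.90, 13.40 and 13.87 in control arrays, lowest in anti-miR-503 replicate 1 and next in control replicate 2, as ETV5 was. With 6 arrays and 3936 genes compared, r is a rank of likeness only.

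**Figure D4:**
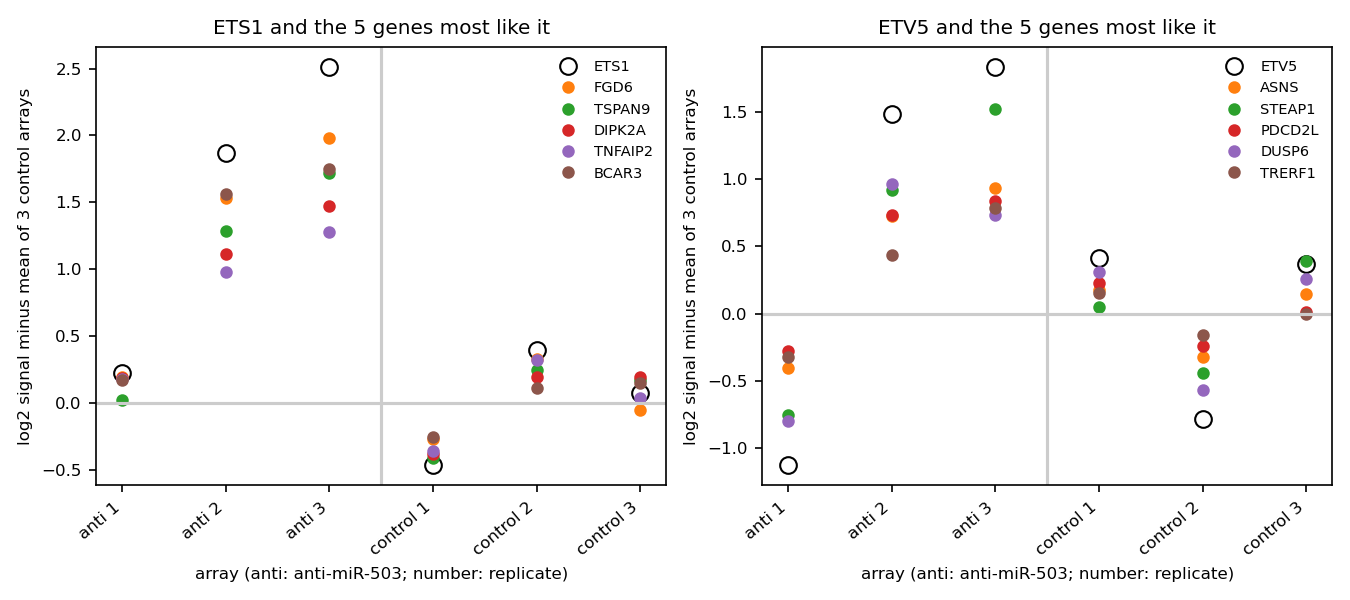
Log2 signal of each array minus the mean of the 3 control arrays (vertical axis) for ETS1 (left panel) and ETV5 (right panel), drawn as open circles, and for the 5 genes most like each, drawn as filled circles, with anti-miR-503 replicates 1 to 3 left of the line and control replicates 1 to 3 right of it. ETS1 and its 5 genes are highest in anti-miR-503 replicate 3 and lowest in control replicate 1, and ETV5 and its 5 genes are low in anti-miR-503 replicate 1 and control replicate 2.

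Growth state also differed between arrays within the groups. The median level of 12 mitotic genes was 9.69, 12.30 and 12.36 in anti-miR-503 arrays, against 12.13, 12.24 and 9.002 in control arrays, low in anti-miR-503 replicate 1 and control replicate 3. Of the ETS genes in these 2 arrays, ETV5 was at 7.57 in anti-miR-503 replicate 1, its lowest array, and at 9.07 in control replicate 3, near control replicate 1. ETV1 was also lowest in anti-miR-503 replicate 1. ETV4 had its lowest values in just these 2 arrays (6.11 and 6.55), both below background. ETS2 was lowest in control replicate 3 (12.08), with 12.38 in anti-miR-503 replicate 1. ETS1, FLI1, ELK3 and ERG were lowest in control replicate 1, and ELF1 and EHF in anti-miR-503 replicate 3. The part of growth state in the values of the ETS genes was not tested.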

How the data were processed

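The authors hybridized RNA of 3 anti-miR-503 and 3 control cultures to Clariom S arrays, and per the submitters' processing notes made the values with Transcriptome Analysis Console and RMA. The deposited values are 1 log2 signal per row and array, background-corrected, normalized between arrays and summarized over probes, and they were used as given (array medians 6.56 to 6.63). The sources used here do not give the annotation build, so no position is taken from the array. The table has 24351 rows, from which the array's own 2903 controls were removed, leaving 21448 to test. The platform annotation named 17709 rows with 1 symbol. The 10 ETS genes had 1 row each, and the symbol that RefSeq gives for the gene ID was the same for all 10.

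The test was limma's moderated linear model (limma 3.58.1, R 4.3.3), and p-values were adjusted by Benjamini-Hochberg across the whole table. Between 40.3% and 43.6% of rows were above background on an array. The members and all gene lists were chosen with earlier results of these data known, so members get no test and lists no p. An "at least" fold sets the mean of the group with an array above background against the other group's signal raised, per array, to the background. The values of the first group are used as given, also those below background, as in replicate 1 of ETV4 and SPRY1. Named genes are the 10, the other ETS genes, from each other list the 4 genes of smallest p that passed the 2-fold threshold (or the first 2 by p where none passed), and the 5 genes most like ETS1 and ETV5, which had the largest range over the arrays. Cell type markers are named as examples chosen after their values were seen. Alternatives were the replicate number as a block, a second quantile normalization, centring, array weights, a variance trend, an unpaired t test, a filter at the median level, another background percentile and leaving out each array. Procedures were tested on simulated data. The number of arrays limits the precision. A limma p-value sets the group difference against the spread between these cultures, which limma moderates over all rows. The authors' own fold changes were used for the direction of their signs only, and some genes are not reported here. Figures were drawn with matplotlib 3.10.9.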

Additional observations from a re-analysis of the deposited data

How the results depend on the processing

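The log2 differences of the 10 ETS genes moved by less than the SD between replicates under every alternative run. With 3 arrays per group, leaving out 1 array cannot move a difference by as much as that SD. The block and the choice of row leave it unchanged, so no stability is read from this. ETV5, for example, went from 0.73 to 1.66 without anti-miR-503 replicate 1 and to 0.18 without replicate 3. Of 110 values 1 changed sign, ETV1 without anti-miR-503 replicate 1 (0.07). Leaving out each array in turn gave 0 to 6 ETS genes 2-fold higher (2 with all arrays), the 6 without anti-miR-503 replicate 1. It gave 81 to 519 rows higher (187 with all arrays), 82 to 818 lower (196) and 0 to 154 at an adjusted p under 0.05 (0), in each case with the highest count without anti-miR-503 replicate 1. The lists ranged over 0 to 1 for other ETS genes lower (0), 0 to 4 for partners higher (0), 0 to 1 for partners lower (0), 0 to 2 for regulators lower (0), 1 to 5 for ERK feedback genes higher (2), 0 to 1 for feedback genes lower (0) and 0 to 2 for targets higher (1). With array weights 342 rows were higher and 411 lower, and 4 ETS genes, 3 partners, 3 feedback genes and 2 targets were higher and 1 regulator lower. By an unpaired t test 38 rows were higher and 55 lower, and 0 ETS genes, 1 feedback gene and 0 targets were higher. With rows below the median level left out, 118 rows were higher and 123 lower among the rows kept. A second quantile normalization and centring on the array median each gave 1 partner higher. The labels do not say whether same-numbered arrays are pairs. The deviations of same-numbered arrays correlated at -0.10, 0.21 and 2.9e-05, and those of other combinations at -0.33 to 0.25. With 3 arrays per group this cannot settle whether the arrays are paired. With the replicate number as a block, 2 ETS genes, 1 partner and 3 feedback genes were higher. The cause of these changes was not tested. With the 90th percentile of the negative controls as background, 9590 rows exceeded it on all arrays, against 8035. Arrays give only a bound for the genes near background, here ETV4 and ETV5 in part and ERG and EHF throughout.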

Other observations

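Of the immediate early genes, 3 are given here that were chosen after their values were seen. FOS was above background in control replicate 1 alone, at 8.57, where the other controls had 5.86 and 5.57 and no anti-miR-503 array exceeded background. JUN had 10.72, 12.15 and 11.92 in anti-miR-503 arrays, against 11.95, 10.14 and 10.36 in control arrays. With EGR1 at 13.82 in the same array, control replicate 1 was the highest of the 3 controls for these 3 genes, though for JUN it lay below anti-miR-503 replicate 2, while ETS1 and ELK3 were at their lowest there, at 9.48 and 8.79.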
